A study of Danio rerio with 4 samples.

Results

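The array carried 55 genes of the heat shock protein families and their partners among the 8793 genes with a single symbol, measured by 61 of 10795 gene probe sets. The 55 genes were taken by symbol (hsp, dnaj, hsf or bag followed by a family code), and each gene was represented by its probe set with the highest mean signal over the 4 arrays. They comprised 4 Hsp90 genes, 11 Hsp70 and Hsp110 genes, 2 chaperonin genes, 3 small heat shock protein genes, 28 J-domain (DnaJ) genes, 3 heat shock factor genes and 4 BAG genes. The symbol rule itself uses no measured value, and all 55 matched the current zebrafish gene table by gene ID.

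The samples were whole zebrafish embryos (Danio rerio, RW strain) of Tg(hsp:en-pou5f3), from crosses of hemizygous carriers with wild-type fish, and wild-type embryos of the same crosses. The transgene places a fusion of the Drosophila Engrailed repressor domain and Pou5f3 under the hsp70l heat shock promoter, and the fusion acts against endogenous Pou5f3, a POU-family transcription factor of the early embryo. Embryos of both genotypes were raised at 25°C, heat-shocked at 37°C for 60 min at the 3-somite stage (3-ss) or at 90% epiboly (late gastrulation), and left to develop for 30 min before RNA was taken. RNA of genotyped single embryos was pooled, and each of the 4 conditions (en-pou5f3 at 3-ss, wild-type at 3-ss, en-pou5f3 at 90% epiboly, wild-type at 90% epiboly) was read on 1 Affymetrix array. There is thus no replicate check and no test for any difference below. Wild-type embryos received the same heat shock and no array came from unheated embryos, so by the labels and methods the arrays compare genotypes and stages under heat and do not measure induction by heat. The supplementary tables of the study head the same signals, at both stages, heat shock (-) where the label is wild-type and heat shock (+) where it is en-pou5f3. The labels were followed here; taken literally, those headings would make every genotype ratio below a comparison of heated with unheated embryos, which for heat shock genes is a different measurement.

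Molecular chaperones hold, fold and refold other proteins. Hsp70 proteins bind short exposed stretches in cycles driven by ATP, J-domain proteins deliver clients and start the ATP step, Hsp110 and BAG proteins exchange the nucleotide, and Hsp90 finishes the folding of receptors, kinases and myosin. Small heat shock proteins hold unfolded clients without ATP, the Hsp60 and Hsp10 ring folds proteins in mitochondria, and heat shock factors switch on the inducible genes when proteins unfold. The endoplasmic reticulum (ER) has its own Hsp70, Hsp90 and J-domain proteins for secreted and membrane proteins.

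Values are MAS5 signals, a linear intensity that summarises the probes of a probe set. The median signal of the arrays lay between 122 and 137, and 71.3 to 74.4% of gene probe sets reached the floor of 32.4, the 95th percentile of control probe sets with no target. The probe set of pou5f3, which the sequence of the fusion could also reach, read 2138 in en-pou5f3 embryos and 1277 in wild-type embryos at 3-ss, and 8284 in en-pou5f3 embryos and 5473 in wild-type embryos at 90% epiboly. One control probe set of the manufacturer, which has no gene name in the annotation, read 14534 in en-pou5f3 embryos and 1670 in wild-type embryos at 3-ss, and 5531 in en-pou5f3 embryos and 110 in wild-type embryos at 90% epiboly. The wild-type array at 3-ss thus carried this signal at 15.2 times the level of the wild-type array at 90% epiboly, and its origin was not tested. In whole embryos, fewer cells of a type and less RNA per cell cannot be told apart.

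Of the 55 genes, 48 reached the floor on all 4 arrays. Under the floor on every array were dnajc4, dnajc12, dnajc24, hsf5 and hspb6, with signals between 1.96 and 29.7, and no ratio is given for them. bag5 reached the floor only in en-pou5f3 embryos at 3-ss (38.8), and dnajb1a reached it on both 3-ss arrays (51.9 in en-pou5f3 embryos and 33.3 in wild-type embryos). Most of the family therefore had a measurable signal in both genotypes and at both stages, as did 6566 of the 8793 genes with a single symbol.

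At 3-ss, 1 heat shock protein gene was at least 2-fold higher in en-pou5f3 embryos, the inducible Hsp70 gene hspa1b, and 2 were at least 2-fold lower, the ER Hsp90 gene hsp90b1 and the atypical Hsp70 gene hspa12a. These were 3 of 50 measured genes of the family, where 1.58% of all 7467 measured genes were higher and 1.85% lower. At 90% epiboly, 0 of 48 measured family genes were past 2-fold in either direction, where 1.1% of all 7261 measured genes were higher and 2.26% lower. With counts this small, no change of the family as a whole is read from them.

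Most of the family differed little between the genotypes. At 3-ss, 43 of 50 genes lay within 1.5-fold (86.0%, against 86.4% of all genes), and the median log2 genotype ratio (en-pou5f3 divided by wild-type) was 0.08, against 0.00 for all genes. At 90% epiboly, 46 of 48 lay within 1.5-fold (95.8%, against 88.5% of all genes), with a median of 0.10 against 0.03 for all genes. Ratios above 0 were found for 32 of 50 genes at 3-ss (64.0%, against 49.6% of all genes). At 90% epiboly they were found for 34 of 48 (70.8%, against 55.4%). With the arrays centred on their medians, 29 of 50 were above 0 at 3-ss and 34 of 49 at 90% epiboly. Centring moved all genes as well. The family median was then 0.06 at 3-ss, against -0.02 for all genes, and 0.07 at 90% epiboly, against 0.00. The only spread these arrays offer is between probe sets of one gene, whose log2 ratios had an SD of 0.33 at 3-ss and 0.26 at 90% epiboly over 950 genes with several probe sets. That spread holds no variation between embryos or arrays.

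**Figure D1:**
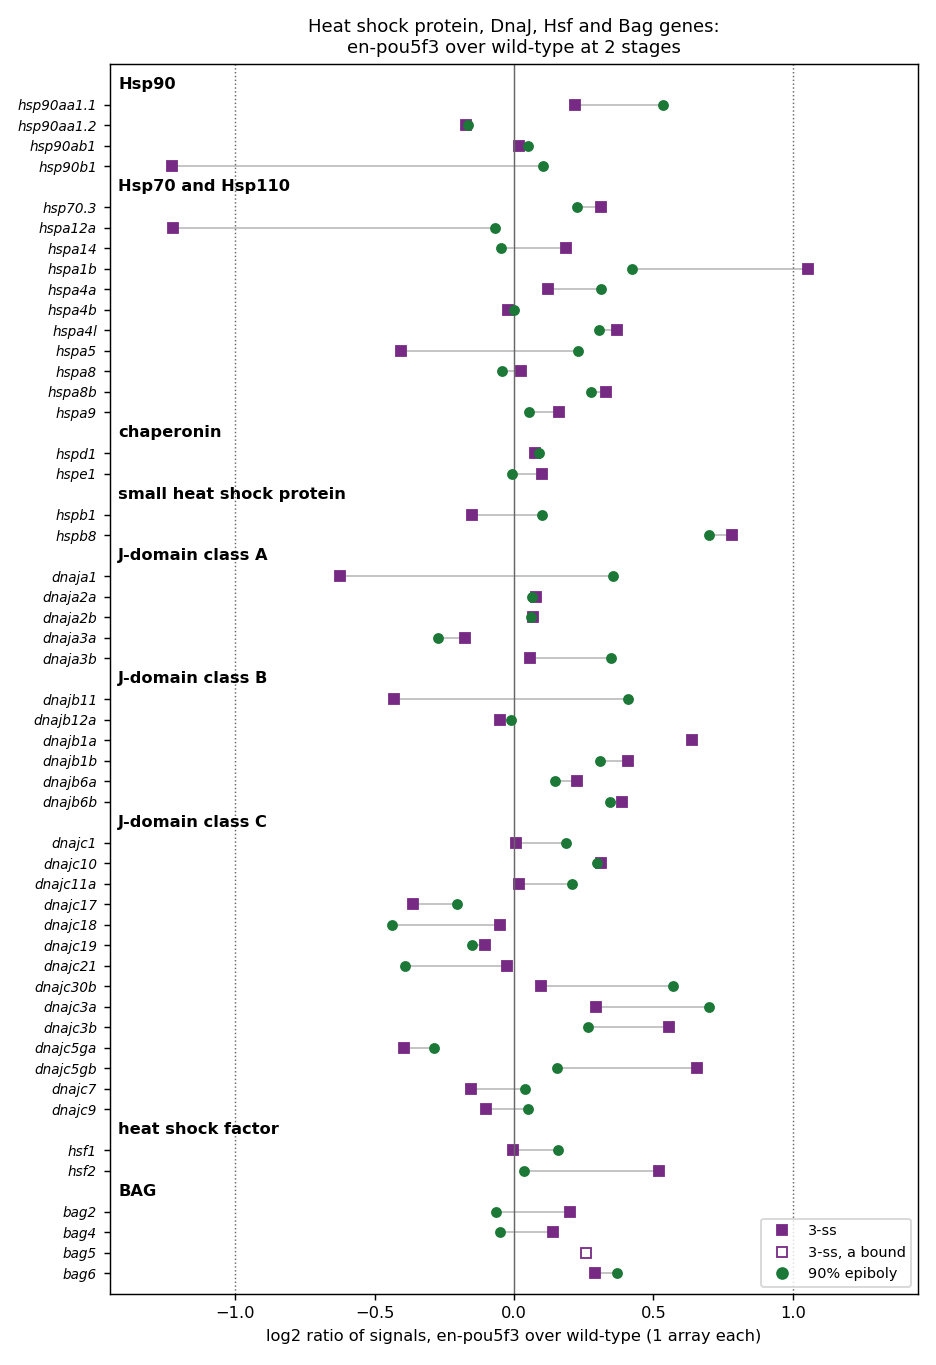
Log2 ratio of signals, en-pou5f3 over wild-type, for the 50 genes with a ratio at 3-ss (squares, 1 of them a bound) and the 48 with one at 90% epiboly (circles), grouped by role. Dotted lines mark 2-fold; hspa1b lies beyond the right one and hsp90b1 and hspa12a beyond the left one, each at 3-ss.

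The inducible Hsp70 gene hspa1b had the widest range of the family. Its signal was 3383 in en-pou5f3 embryos and 1631 in wild-type embryos at 3-ss, and 460 in en-pou5f3 embryos and 343 in wild-type embryos at 90% epiboly. Both 3-ss arrays were above both 90% epiboly arrays, and en-pou5f3 was the higher array at each stage. The genotype ratio was 2.07-fold at 3-ss (log2 1.05), just past the threshold, and 1.34-fold at 90% epiboly (log2 0.42). hspa1b had 1 probe set, so no second measurement of it was at hand.

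The other inducible Hsp70 gene with a single symbol, hsp70.3, read 13564 in en-pou5f3 embryos and 10937 in wild-type embryos at 3-ss, and 8283 in en-pou5f3 embryos and 7086 in wild-type embryos at 90% epiboly. Its log2 ratios, 0.31 and 0.23, were both above 0 and short of 2-fold, and its probe set is of the kind whose probes can also match related genes. A further probe set that the annotation gives to several inducible Hsp70 genes at once, among them the gene whose promoter drives the transgene, was assigned to no gene. It read 22398 in en-pou5f3 embryos and 19137 in wild-type embryos at 3-ss (log2 0.23), and 18552 in en-pou5f3 embryos and 15113 in wild-type embryos at 90% epiboly (log2 0.30). For hspa1b, hsp70.3 and the shared probe set, the en-pou5f3 array was the higher of each pair. The probe set of hsp70.3 and the shared one may read some of the same transcripts, so they are not separate readings.

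The constitutive Hsp70 gene hspa8, which serves folding in unstressed cells, was nearly level on the 4 arrays, at 28701 in en-pou5f3 embryos and 28234 in wild-type embryos at 3-ss, and 26007 in en-pou5f3 embryos and 26769 in wild-type embryos at 90% epiboly. Signals of this size lie near the top of the scale, as the highest signal on each array was between 35590 and 40085. Whether this compressed their ratios was not tested. The same limit applies to hspb1, hsp90aa1.2 and hsp90ab1 below, which read between 20673 and 30267. It also applies at 3-ss to hsp90aa1.1 (24576 in en-pou5f3 embryos and 21142 in wild-type embryos). The shared inducible Hsp70 probe set above (22398 in en-pou5f3 embryos at 3-ss) reached this range too. The hspa8 relative hspa8b read 18565 in en-pou5f3 embryos and 14780 in wild-type embryos at 3-ss (log2 0.33). At 90% epiboly it read 12106 in en-pou5f3 embryos and 9994 in wild-type embryos (log2 0.28).

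Among the Hsp110 genes, whose products reset Hsp70 by nucleotide exchange, hspa4l read 2147 in en-pou5f3 embryos and 1663 in wild-type embryos at 3-ss, and 1430 in en-pou5f3 embryos and 1159 in wild-type embryos at 90% epiboly. hspa4a read 13557 in en-pou5f3 embryos and 12474 in wild-type embryos at 3-ss, and 11494 in en-pou5f3 embryos and 9250 in wild-type embryos at 90% epiboly. The log2 ratios of hspa4l (0.37 at 3-ss and 0.30 at 90% epiboly) and hspa4a (0.12 and 0.31) were above 0, while those of hspa4b (-0.02 and 0.00) were close to 0. The mitochondrial Hsp70 gene hspa9 (mortalin) had log2 ratios of 0.16 at 3-ss and 0.05 at 90% epiboly, and its second probe set gave 0.18 and 0.05. hspa14, a ribosome-linked Hsp70 relative, had log2 ratios of 0.19 at 3-ss and -0.05 at 90% epiboly.

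Only the atypical member of this group, hspa12a, was lower in en-pou5f3 embryos by the 2-fold rule. It read 182 in en-pou5f3 embryos and 424 in wild-type embryos at 3-ss, and 476 in en-pou5f3 embryos and 500 in wild-type embryos at 90% epiboly. The en-pou5f3 array at 3-ss stood apart, and the other three lay between 424 and 500. This was a 2.34-fold lower signal at 3-ss (log2 -1.22), against a log2 ratio of -0.07 at 90% epiboly. HSPA12A carries only part of the Hsp70 fold and is not a typical heat-inducible chaperone.

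**Figure D2:**
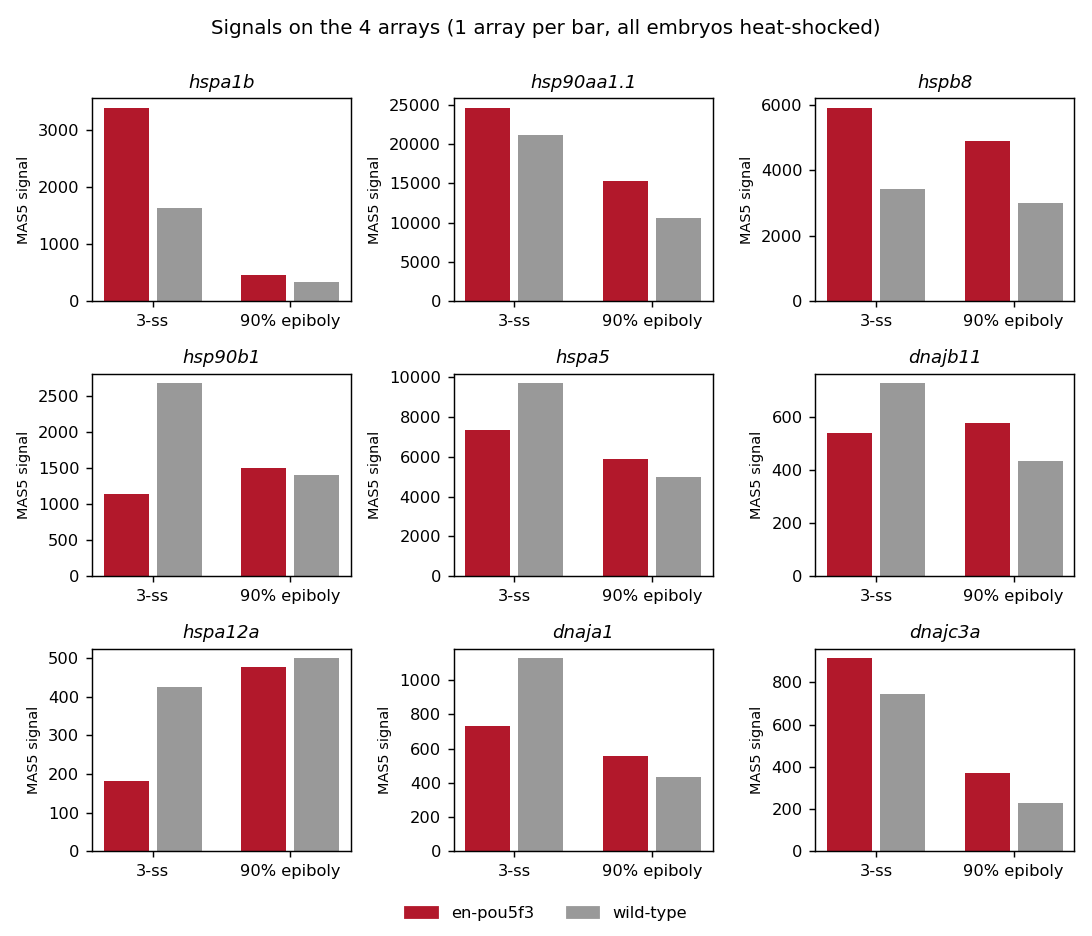
MAS5 signal (linear axis from 0, scaled per gene) of 9 genes, with 1 bar per array; at each stage en-pou5f3 stands left of wild-type. hspa12a and hsp90b1 were lower in en-pou5f3 embryos at 3-ss (182 against 424, and 1143 against 2675), and hspa1b was higher (3383 against 1631).

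Of the Hsp90 genes, the ER form hsp90b1 (Grp94, which folds secreted and cell-surface proteins such as Toll-like receptors and integrins) read 1143 in en-pou5f3 embryos and 2675 in wild-type embryos at 3-ss, and 1505 in en-pou5f3 embryos and 1402 in wild-type embryos at 90% epiboly. Here the wild-type array at 3-ss was the one that stood apart, above the other three. The signal was 2.34-fold lower in en-pou5f3 embryos at 3-ss (log2 -1.23), and the log2 ratio at 90% epiboly was 0.10.

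The cytosolic Hsp90 genes did not reach 2-fold between genotypes. hsp90aa1.1, which in zebrafish is required for myosin folding in skeletal muscle, read 24576 in en-pou5f3 embryos and 21142 in wild-type embryos at 3-ss (log2 0.22), and 15291 in en-pou5f3 embryos and 10549 in wild-type embryos at 90% epiboly (log2 0.54). Its neighbour in the genome, hsp90aa1.2, read 23258 in en-pou5f3 embryos and 26183 in wild-type embryos at 3-ss, and 22402 in en-pou5f3 embryos and 25140 in wild-type embryos at 90% epiboly, which gave log2 ratios of -0.17 at both stages. The second probe set of hsp90aa1.2 gave 0.19 at 3-ss and 0.07 at 90% epiboly, so its probe sets disagreed in sign. A probe set shared by these neighbours and assigned to neither had log2 ratios of 0.33 at 3-ss and 0.07 at 90% epiboly. The beta form hsp90ab1 was level on the 4 arrays, with signals between 20673 and 23517 and log2 ratios of 0.02 and 0.05, while its second probe set stayed under the floor on every array.

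The mitochondrial chaperonin genes hspd1 (Hsp60) and hspe1 (Hsp10), which lie next to each other in the genome and build one folding chamber, were also level. hspd1 ranged from 15642 to 16628 over the 4 arrays, with log2 ratios of 0.07 at 3-ss and 0.09 at 90% epiboly. hspe1 ranged from 16863 to 18081, with log2 ratios of 0.10 and -0.01.

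Small heat shock proteins were represented by hspb8 and hspb1. hspb8, whose product works with Bag3 in clearing misfolded proteins in muscle, read 5894 in en-pou5f3 embryos and 3431 in wild-type embryos at 3-ss, and 4889 in en-pou5f3 embryos and 3012 in wild-type embryos at 90% epiboly. Both en-pou5f3 arrays were above both wild-type arrays. The ratios were 1.72-fold (log2 0.78) and 1.62-fold (log2 0.70), past the 95th percentile of all genes at each stage (0.67 and 0.60) and short of 2-fold. That percentile was also passed by hspa1b at 3-ss (log2 1.05) and by dnajc3a at 90% epiboly (log2 0.70). No other gene of the family passed it. hspb1 (Hsp27), an actin-linked holding chaperone, read 27267 in en-pou5f3 embryos and 30267 in wild-type embryos at 3-ss (log2 -0.15), and 28713 in en-pou5f3 embryos and 26807 in wild-type embryos at 90% epiboly (log2 0.10).

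None of the 25 J-domain genes measured at 3-ss, nor of the 24 at 90% epiboly, was past 2-fold between genotypes. Of all genes, 1.58% were higher and 1.85% lower at 3-ss, and 1.1% and 2.26% at 90% epiboly. With shares this small, a count of 0 does not set the J-domain genes apart. Their median log2 ratios were 0.02 at 3-ss and 0.15 at 90% epiboly, against 0.00 and 0.03 for all genes. Among class A proteins, general partners of Hsp70, dnaja1 read 731 in en-pou5f3 embryos and 1127 in wild-type embryos at 3-ss (log2 -0.62), and 558 in en-pou5f3 embryos and 436 in wild-type embryos at 90% epiboly (log2 0.35). The wild-type array was the higher one at 3-ss and the lower one at 90% epiboly. The other class A genes, dnaja2a, dnaja2b and the mitochondrial pair dnaja3a and dnaja3b, had log2 ratios between -0.18 and 0.08 at 3-ss and between -0.27 and 0.35 at 90% epiboly.

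In class B, dnajb1b, the zebrafish counterpart of the main heat-inducible Hsp40, read 16690 in en-pou5f3 embryos and 12563 in wild-type embryos at 3-ss (log2 0.41), and 14627 in en-pou5f3 embryos and 11819 in wild-type embryos at 90% epiboly (log2 0.31). dnajb6b, whose human relative keeps aggregation-prone proteins soluble, had log2 ratios of 0.39 at 3-ss and 0.35 at 90% epiboly. dnajb6a had 0.22 at 3-ss and 0.15 at 90% epiboly, and its second probe set gave 0.48 and 0.05. The dim dnajb1a, near the floor, had a log2 ratio of 0.64 at 3-ss. dnajb12a, whose product is anchored in the ER membrane with its J domain facing the cytosol, had -0.05 and -0.01. dnajb1b, dnajb6a and dnajb6b thus shared a sign at both stages, with sizes close to the spread between probe sets.

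Class C holds J-domain proteins with specialised partners, and 14 of its 17 genes were measured. At 3-ss the highest log2 ratios were 0.66 for dnajc5gb (69.8 in en-pou5f3 embryos and 44.3 in wild-type embryos), a relative of the synaptic vesicle protein CSP, and 0.55 for dnajc3b (403 in en-pou5f3 embryos and 275 in wild-type embryos), which encodes an ER co-chaperone. The lowest were -0.40 for dnajc5ga and -0.36 for dnajc17, a nuclear protein linked to splicing. At 90% epiboly the highest were 0.70 for dnajc3a (371 in en-pou5f3 embryos and 229 in wild-type embryos) and 0.57 for dnajc30b (113 in en-pou5f3 embryos and 76.2 in wild-type embryos), whose mammalian relative sits in mitochondria. The lowest were -0.44 for dnajc18 and -0.39 for dnajc21, which acts in ribosome maturation. Those lowest at 90% epiboly were near 0 at 3-ss, with log2 ratios of -0.05 for dnajc18 and -0.03 for dnajc21. The remaining measured class C genes, dnajc1, dnajc7, dnajc9, dnajc10, dnajc11a and the mitochondrial import gene dnajc19, lay between -0.16 and 0.31 at 3-ss and between -0.15 and 0.30 at 90% epiboly.

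The measured heat shock factor genes, hsf1 and hsf2, were not past 2-fold between genotypes. Of all genes, 1.58% were higher and 1.85% lower at 3-ss, and 1.1% and 2.26% at 90% epiboly. hsf1, the main switch of the heat response, read 158 in both en-pou5f3 and wild-type embryos at 3-ss (log2 0.00), and 254 in en-pou5f3 embryos and 228 in wild-type embryos at 90% epiboly (log2 0.16). Its second probe set was under the floor on 3 arrays. hsf2, a partner of Hsf1 with roles in development, read 753 in en-pou5f3 embryos and 525 in wild-type embryos at 3-ss (log2 0.52), and 880 in en-pou5f3 embryos and 858 in wild-type embryos at 90% epiboly (log2 0.04). These are transcript signals, and Hsf1 is switched on as a protein.

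BAG proteins release clients from Hsp70 and link it to other machineries. bag6, which guards newly made membrane proteins in the cytosol, had log2 ratios of 0.29 at 3-ss and 0.37 at 90% epiboly. bag2 had 0.20 and -0.07, and bag4 had 0.14 and -0.05. For bag5, measured at 3-ss through the en-pou5f3 array alone, the ratio was at least 1.2-fold.

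Of the 48 genes over the floor on all arrays, 25 had ratios above 0 at both stages (52.1%, against 33.5% of 6566 genes). Ratios below 0 at both stages were found for 9 (18.8%, against 28.4%). These counts were not repeated with the arrays scaled in other ways. The genotype ratios at 3-ss and at 90% epiboly share no array, and over the 48 genes they had a Pearson r of 0.39 and a Spearman rho of 0.47, against 0.43 and 0.33 over all genes. These are descriptions across genes, which share arrays and scaling and are not independent replicates.

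Stage comparisons set 3-ss against 90% epiboly within each genotype. In en-pou5f3 embryos, 2 of 50 measured genes were at least 2-fold higher at 3-ss than at 90% epiboly (hspa1b and dnajc3a), where 7.59% of all genes were, and 1 was at least 2-fold lower (hspa12a), where 3.22% were. In wild-type embryos, 4 of 49 were at least 2-fold higher at 3-ss (hspa1b, dnajc3a, dnaja1 and hsp90aa1.1), where 8.24% of all genes were, and 0 were lower, where 3.82% were. With the arrays centred on their medians or quantile-normalized, the wild-type calls were 3 higher (without hsp90aa1.1) and 1 lower (dnajc5gb). The median log2 stage ratio of the family was -0.01 in en-pou5f3 embryos and 0.08 in wild-type embryos, against 0.02 for all genes in each. The stage comparisons use the same 4 arrays as the genotype comparisons, so they are another reading of the same signals.

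hspa1b, at 3383 against 460 in en-pou5f3 embryos and 1631 against 343 in wild-type embryos, was 7.36-fold and 4.76-fold higher at 3-ss. dnajc3a, which encodes the P58IPK co-chaperone of the ER, read 914 at 3-ss against 371 at 90% epiboly in en-pou5f3 embryos, and 746 against 229 in wild-type embryos. These were 2.47-fold and 3.26-fold higher at 3-ss. Both genes were therefore higher at the later stage in each genotype, and both 3-ss arrays were above both 90% epiboly arrays.

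Other genes passed the threshold in one genotype. dnaja1 read 731 at 3-ss against 558 at 90% epiboly in en-pou5f3 embryos (1.31-fold), and 1127 against 436 in wild-type embryos (2.58-fold). hsp90aa1.1 read 24576 against 15291 in en-pou5f3 embryos (1.61-fold) and 21142 against 10549 in wild-type embryos (2.0-fold). hspa12a read 182 against 476 in en-pou5f3 embryos, a 2.62-fold lower signal at 3-ss, and 424 against 500 in wild-type embryos (1.18-fold lower). That a gene passed in one genotype and not in the other was not tested as a difference.

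Signals of both measured heat shock factors were lower at 3-ss, short of 2-fold. hsf1 had log2 stage ratios of -0.69 in en-pou5f3 embryos and -0.53 in wild-type embryos, and hsf2 had -0.23 and -0.71. For dnajb6a the choice of probe set mattered, since the brighter one gave -0.02 in en-pou5f3 embryos and -0.09 in wild-type embryos, and the other gave 1.07 and 0.63.

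Over the 4 arrays, the highest signal was within 1.5-fold of the lowest for 27 of 48 genes (56.2%, against 51.4% of 6566 genes), and beyond 2-fold for 7 (14.6%, against 21.0%). Those 7 were hspa1b (9.87-fold), dnajc3a (4.0-fold), hspa12a (2.75-fold), dnaja1 (2.58-fold), hsp90b1 (2.34-fold), hsp90aa1.1 (2.33-fold) and dnajc5gb (2.17-fold). The wild-type array at 90% epiboly was the lowest of the 4 for 21 of 48 genes (43.8%, against 29.4% of 6566 genes).

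**Figure D3:**
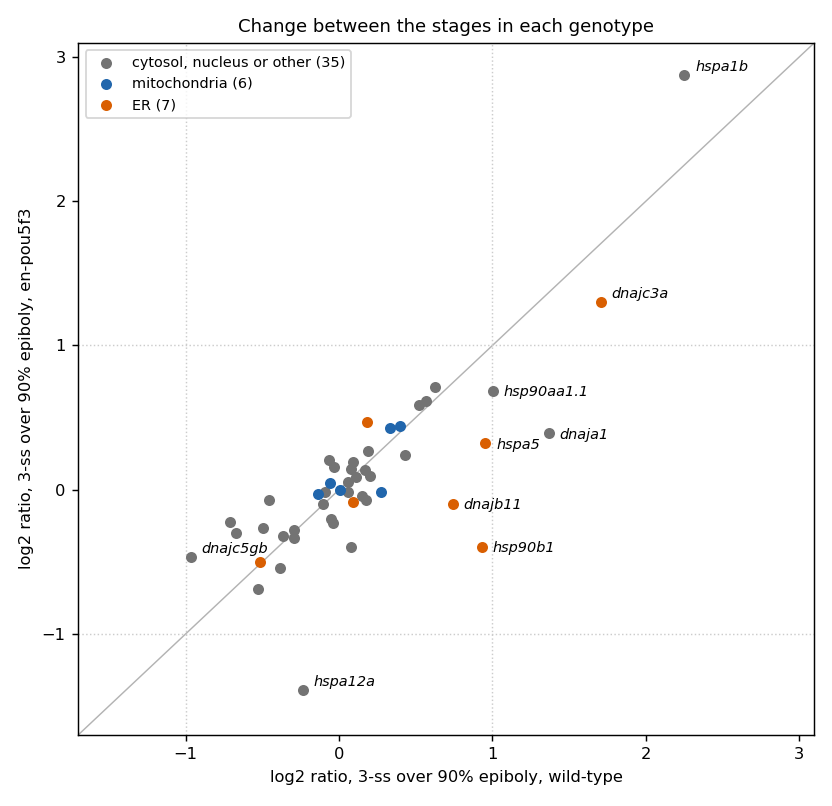
Log2 ratio of 3-ss over 90% epiboly in en-pou5f3 embryos (vertical) and in wild-type embryos (horizontal) for the 48 genes over the floor on all arrays, coloured by compartment; the line marks equal ratios and dotted lines mark 2-fold. hspa1b lies at the upper right, and dnaja1, hspa5, dnajb11 and hsp90b1 lie below the line. Compartments were assigned by symbol, and dnajc30b is coloured with cytosol, nucleus or other because its symbol was not on the mitochondrial list.

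Chaperones of the ER made up 7 of the measured genes. At 3-ss, 4 of the 7 had a log2 genotype ratio above 0 and 3 had one below 0 (median log2 0.01), with hsp90b1 past 2-fold. At 90% epiboly all 7 had a ratio above 0 (median log2 0.26), and 0 were past 2-fold. Of all genes, 49.6% were above 0 at 3-ss and 55.4% at 90% epiboly. At 3-ss 1.58% of all genes were at least 2-fold higher and 1.85% lower, and at 90% epiboly 1.1% and 2.26%. The 7 leave out dnajb12a, whose J domain faces the cytosol; with it, 4 of 8 were above 0 at 3-ss and 7 of 8 at 90% epiboly. With the arrays centred on their medians, 3 of 7 were above 0 at 3-ss (median -0.01, against -0.02 for all genes). At 90% epiboly 7 of 7 were, with a median of 0.24 against 0.00 for all genes. Whether this differs from the rest of the family was not tested.

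The 3 ER genes below 0 at 3-ss were hsp90b1, hspa5 and dnajb11. hspa5 (BiP), the ER Hsp70 and sensor of unfolded protein in the ER, read 7314 in en-pou5f3 embryos and 9677 in wild-type embryos at 3-ss (log2 -0.40), and 5857 in en-pou5f3 embryos and 4995 in wild-type embryos at 90% epiboly (log2 0.23). dnajb11 (ERdj3), a J-domain partner of BiP, read 541 in en-pou5f3 embryos and 729 in wild-type embryos at 3-ss (log2 -0.43), and 578 in en-pou5f3 embryos and 436 in wild-type embryos at 90% epiboly (log2 0.41). In each of these 3 genes the wild-type array at 3-ss was the highest of the 4 and the wild-type array at 90% epiboly the lowest or, for hsp90b1, the second lowest.

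The other 4 ER genes did not follow. dnajc3a and dnajc3b had ratios above 0 at both stages (log2 0.29 and 0.55 at 3-ss, 0.70 and 0.26 at 90% epiboly), and so did dnajc10, an ER disulfide reductase (0.31 and 0.30). dnajc1, which sits in the ER membrane at ribosomes, had 0.01 at 3-ss and 0.19 at 90% epiboly. Between stages, the median log2 ratio of the 7 ER genes was -0.09 in en-pou5f3 embryos and 0.74 in wild-type embryos. Higher at 3-ss were 3 of 7 in en-pou5f3 embryos and 6 of 7 in wild-type embryos. Of all genes, 51.9% were higher at 3-ss in each genotype, with a median of 0.02.

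ER folding and unfolded protein response genes outside the family were read beside them (a list of 31 symbols matched 22 genes on the array). Of these 22 genes, 0 were past 2-fold between genotypes at either stage, where 1.58% of all genes were higher and 1.85% lower at 3-ss. At 90% epiboly 1.1% of all genes were higher and 2.26% lower. At 3-ss 9 of the 22 were above 0 and 13 below (median log2 -0.11), where 49.6% of all genes were above 0. At 90% epiboly 16 of the 22 were above 0 and 6 below (median 0.16), where 55.4% of all genes were above 0. A ratio above 0 at 90% epiboly and below 0 at 3-ss was found for 8 of 22 (36.4%), for 3 of the 7 ER members (42.9%) and for 22.7% of all genes.

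Protein disulfide isomerases form and shuffle disulfide bonds of secreted proteins, and pdia4 and pdia6 are given as examples that were named after their values were seen. pdia4 read 1131 in en-pou5f3 embryos and 1788 in wild-type embryos at 3-ss (log2 -0.66), and 677 in en-pou5f3 embryos and 518 in wild-type embryos at 90% epiboly (log2 0.39). pdia6 read 557 in en-pou5f3 embryos and 998 in wild-type embryos at 3-ss (log2 -0.84), and 481 in en-pou5f3 embryos and 494 in wild-type embryos at 90% epiboly (log2 -0.04). Others in the list went differently: pdia5 had log2 ratios of 0.17 at 3-ss and 0.03 at 90% epiboly, and herpud1, which acts in ER-associated degradation, had 0.34 and 0.84. For pdia4 and pdia6, as for hsp90b1, hspa5 and dnajb11, the wild-type array at 3-ss was the highest. Between stages, 4 of 22 were at least 2-fold higher at 3-ss in en-pou5f3 embryos (calr, calr3a, calr3b and pdia3), where 7.59% of all genes were. In wild-type embryos 5 of 22 were (calr, calr3a, pdia3, pdia4 and pdia6), where 8.24% of all genes were. Just past the threshold were pdia3 in en-pou5f3 embryos (log2 1.02) and pdia6 in wild-type embryos (1.01). Median centring took the list median from log2 0.24 to 0.10 in en-pou5f3 embryos and from 0.50 to 0.35 in wild-type embryos. The median of all genes went from 0.02 to -0.12 in en-pou5f3 embryos and from 0.02 to -0.13 in wild-type embryos. The calls of this list were not recounted with that scaling.

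The hatching gland, a secretory tissue that arises from the prechordal plate, makes and stores enzymes for release. Of 12 listed symbols for markers of hatching gland and prechordal plate, 4 matched genes on the array (cd63, gsc, klf17 and xbp1). None of these 4 genes was under the floor on all arrays. Their summed signal was 7122 in en-pou5f3 embryos and 9217 in wild-type embryos at 3-ss, and 6308 and 8919 at 90% epiboly. Most of the sum at each stage came from cd63 and xbp1. At 3-ss cd63 read 3321 in en-pou5f3 embryos and 3915 in wild-type embryos, and xbp1 read 3568 and 4291. At each stage 4 of 4 were below 0 and 2 of 4 (gsc and klf17) at least 2-fold lower. Of all genes, 1.85% were at least 2-fold lower at 3-ss and 2.26% at 90% epiboly, while 49.6% and 55.4% were above 0. In en-pou5f3 embryos gsc read 22.2 at 3-ss, under the floor, so its ratio there is a bound. At 90% epiboly it read 37.7, just over the floor. cd63 (log2 -0.24 at 3-ss and -0.18 at 90% epiboly) and xbp1 (-0.27 and -0.30) were short of 2-fold. Other marker lists held lower genes too: 1 of 4 neural plate markers was at least 2-fold lower at 3-ss and 2 of 4 at 90% epiboly, and 2 of 6 somite and muscle markers at each stage. So were 1 of 3 blood and vessel markers at 3-ss (gata1a) and 1 of 4 notochord markers at 90% epiboly (tbxta). klf17, which marks the gland, read 210 in en-pou5f3 embryos and 921 in wild-type embryos at 3-ss, and 473 in en-pou5f3 embryos and 1253 in wild-type embryos at 90% epiboly. The summed signal of the 4 markers, mostly cd63 and xbp1, was lower in en-pou5f3 embryos at both stages. hsp90b1, hspa5 and dnajb11 were below 0 at 3-ss alone, and the part of the markers in the ER result was not tested. xbp1 stands on both the marker list and the ER list.

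**Figure D4:**
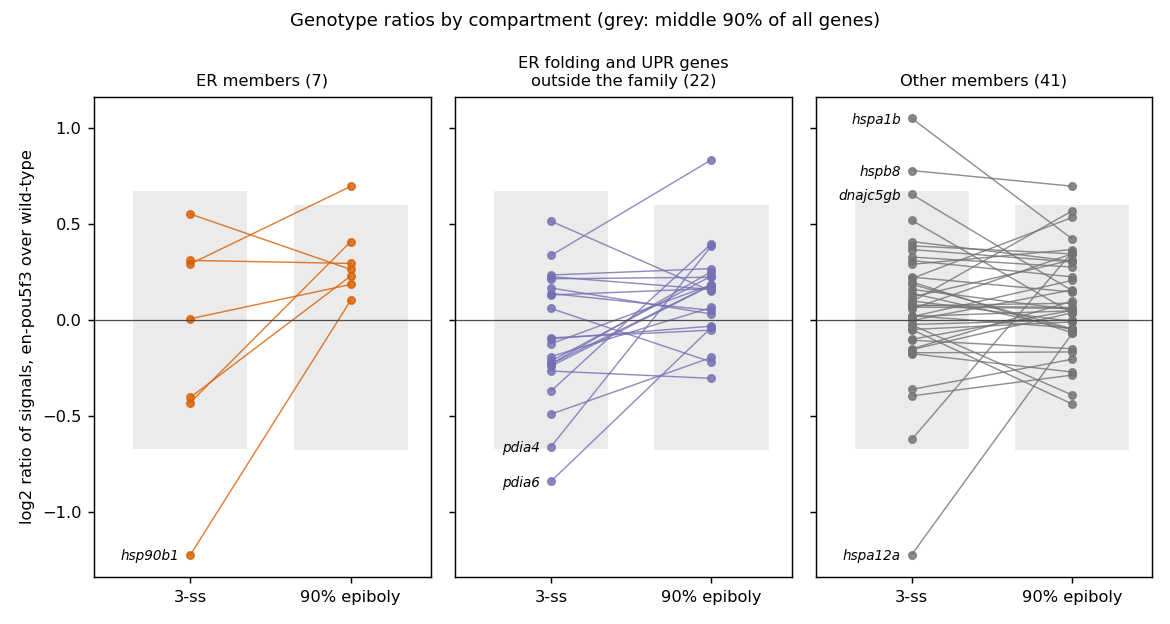
Log2 genotype ratio (en-pou5f3 divided by wild-type) at 3-ss (left in each panel) and 90% epiboly (right) for the 7 ER genes of the family, the 22 ER folding and unfolded protein response (UPR) genes outside it, and the 41 other genes of the family over the floor on all arrays; lines join the 2 values of a gene and grey boxes span the 5th to 95th percentile of all genes. The median was 0.01 at 3-ss and 0.26 at 90% epiboly for the ER genes of the family, and -0.11 and 0.16 for the ER genes outside it.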

How the data were processed

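The authors deposited 1 table of MAS5 signal intensity values (linear scale, made with the Affymetrix software from 250 ng RNA per array, each array scaled to a trimmed mean near 500.1) for 15617 probe sets on 4 arrays. Detection calls and probe-level data were not analysed here, 0 sample columns were left out, and the version and annotation build of the software are not given in the sources used here. Genes were named by the platform annotation: 10802 probe sets had 1 symbol, 135 several and 4680 were not listed. The 115 control probe sets were kept out of the gene counts.

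Ratios were log2 ratios of signals after raising values under a floor of 32.4 to it. A ratio needed 1 of its 2 arrays at or over the floor, and with the other under it was a bound. The floor was set at the 95th percentile of what 20 control probe sets (3 trpn, 17 synthetic tags) read on the arrays, 80 values in all. The plan had foreseen bacterial controls only, and of these trpn alone carried no spike. Each comparison had 1 array a side and no test was run. An additive fit of genotype and stage over the 4 arrays, which leaves 1 residual degree of freedom, was not run either. A call was a ratio of at least 2-fold, and array number limits the precision of every value. Scripts ran in Python 3.11.15 (numpy 2.4.6, pandas 2.3.3, matplotlib 3.10.9) and were tested on simulated data.

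Named genes were all those past 2-fold in any of 4 comparisons, the 5 highest and 5 lowest ratios between genotypes at each stage, all Hsp90, cytosolic Hsp70, chaperonin and heat shock factor genes, and genes with several probe sets, which made 35; the remaining family genes are given so that all 55 are accounted for. Symbols hspbp1 and hsf2bp share the first letters and were left out. The genes and lists were chosen with earlier results of these data known. ER genes and the other lists (CCT ring, Hsp90 helpers, Hsp70 exchange factors, prefoldin, mitochondrial, and markers of 7 tissues) were fixed by name. Alternatives were other floors, no floor, median centring, adding the floor to each signal, quantile normalization, the mean of all probe sets, leaving out shared-probe sets or genes under the floor, and thresholds of 1.5-fold and 3-fold.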

Additional observations from a re-analysis of the deposited data

Results flagged for a closer look

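For dnaja1 the log2 genotype ratio (en-pou5f3 divided by wild-type) at 3-ss minus the one at 90% epiboly was -0.98 (-0.62 and 0.35), and for dnajb11 it was -0.84 (-0.43 and 0.41). They are listed because the genotypes differed in opposite directions at the stages, each by more than the spread between probe sets of one gene, and with 1 array per condition the difference was not tested. The control probe set with no gene name was 8.70-fold higher in en-pou5f3 embryos at 3-ss and 50.4-fold higher at 90% epiboly, and it was the only 1 of 115 control probe sets at least 2-fold higher in en-pou5f3 embryos at both stages. It is listed because it lies outside the genes compared.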

How the results depend on the processing

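Of 136 counts and medians of the family under 12 alternatives, 23 moved and 113 did not; a count moved when it left 1.5 times the value reported, so 9 counts that changed by 1 gene are among the 113, and a median when it shifted by more than its standard error from the probe-set SD. At 1.5-fold between genotypes, 4 genes were higher and 3 lower at 3-ss (6.79% of all genes were higher there and 6.84% lower). At 90% epiboly 2 were higher (5.26% of all genes were higher and 6.27% lower). Between stages, 7 were higher and 2 lower in en-pou5f3 embryos (16.5% and 10.9% of all genes). In wild-type embryos 8 were higher and 3 lower (17.4% and 11.2% of all genes). At 3-fold, 0 were higher and 0 lower at 3-ss between genotypes (0.12% and 0.56% of all genes). Between stages 1 was higher and 0 lower in en-pou5f3 embryos (2.78% and 0.55% of all genes). In wild-type embryos 2 were higher (3.29% of all genes). With no floor, or one at the median control signal, 1 gene was lower at 90% epiboly between genotypes (6.94% and 5.84% of all genes). Between stages 2 were lower in en-pou5f3 embryos (6.72% and 5.90% of all genes) and 1 in wild-type embryos (8.15% and 7.11%). The count of 1 lower in wild-type embryos also came with median centring, quantile normalization or the mean of all probe sets. Of all genes, 5.27%, 4.53% and 3.79% were lower there. The median stage ratio was -0.15 in en-pou5f3 and -0.075 in wild-type embryos with median centring, where the median of all genes was -0.12 and -0.13, and -0.031 in wild-type embryos with quantile normalization. Of 1186 values for single named genes, 6 moved by more than the probe-set SD. No value at or past 2-fold changed sign, and 35 values short of it did, all of them 0.17 or less in size as reported (dnaja2b at 3-ss, 0.07, was -0.02 without shared-probe sets). A floor from the trpn probe sets alone was added after seeing the data and moved none of the counts. Promoter and protein sequences were planned and not run. Genes with a second, dimmer probe set (hsf1, hsp90ab1, dnajb6a) and genes near the floor are the least certain.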

Other observations

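The lists of chaperone systems beside the family held 57 genes, among them the 22 ER folding and unfolded protein response genes above. Past 2-fold between genotypes were 0 of 57 at either stage (median log2 -0.01 at 3-ss and 0.07 at 90% epiboly). Among all genes, 1.58% were at least 2-fold higher and 1.85% lower at 3-ss, and 1.1% and 2.26% at 90% epiboly. With shares this small, a count of 0 does not set these lists apart. The 8 genes of the CCT ring, the cytosolic chaperonin for actin and tubulin, lay between -0.12 and 0.15 at 3-ss and between -0.07 and 0.23 at 90% epiboly. The 13 Hsp90 helper genes had medians of 0.21 at 3-ss and 0.10 at 90% epiboly. Above 0 were 10 of 13 at 3-ss (49.6% of all genes) and 9 of 13 at 90% epiboly (55.4% of all genes). Among these helpers unc45b, the myosin chaperone that works with Hsp90, had log2 ratios of 0.22 and 0.44, and fkbp4, an Hsp90-bound immunophilin, had 0.29 and 0.12. The 5 Hsp70 exchange and adaptor genes had medians of -0.18 and 0.03, the 5 prefoldin genes -0.02 and 0.00, and the 4 mitochondrial genes 0.11 at each stage. In the last list, trap1, the mitochondrial Hsp90, read 704 in en-pou5f3 embryos and 445 in wild-type embryos at 3-ss (log2 0.66), and 519 in en-pou5f3 embryos and 622 in wild-type embryos at 90% epiboly (log2 -0.26).

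Summed signals of the other tissue marker lists are given as values. Neural plate markers (4 genes) summed to 6711 in en-pou5f3 embryos and 12102 in wild-type embryos at 3-ss, and 8422 in en-pou5f3 embryos and 14593 in wild-type embryos at 90% epiboly. Log2 ratios of sox3 were -1.65 at 3-ss and -1.55 at 90% epiboly, and those of sox2 were -0.85 and -2.50. For sox19a they were -0.15 and -0.04, and for sox19b -0.57 and 0.38. Notochord markers (4 genes) summed to 1901 in en-pou5f3 embryos and 2119 in wild-type embryos at 3-ss, and 2571 in en-pou5f3 embryos and 3312 in wild-type embryos at 90% epiboly. Of these genes, tbxta was 2.11-fold lower in en-pou5f3 embryos at 90% epiboly (700 against 1476). Somite and muscle markers (6 genes) summed to 13962 in en-pou5f3 embryos and 14363 in wild-type embryos at 3-ss, and 15633 in en-pou5f3 embryos and 13975 in wild-type embryos at 90% epiboly. The bright msgn1 made up most of that sum (12655 in en-pou5f3 embryos and 12524 in wild-type embryos at 3-ss). Below 0 were 4 of the 6 genes at each stage (median log2 -0.48 at 3-ss and -0.43 at 90% epiboly). Of all genes, 49.6% were above 0 at 3-ss and 55.4% at 90% epiboly. Epidermis and periderm markers (4 genes) summed to 66802 in en-pou5f3 embryos and 69436 in wild-type embryos at 3-ss, and 61312 in en-pou5f3 embryos and 67541 in wild-type embryos at 90% epiboly. Most of each sum came from krt4, krt5 and krt8. The dimmer tp63 read 629 in en-pou5f3 embryos and 1059 in wild-type embryos at 3-ss, and 896 and 1507 at 90% epiboly. Its log2 ratio was -0.75 at each stage. Endoderm markers (3 genes) summed to 1436 in en-pou5f3 embryos and 2025 in wild-type embryos at 90% epiboly. Most of that gap came from foxa2, at 597 in en-pou5f3 embryos and 1181 in wild-type embryos (log2 -0.98). At the same stage sox32 (737 against 735) and sox17 (103 against 110) were nearly level. At 3-ss sox17 was under the floor in both genotypes and sox32 in wild-type embryos, so no sum is given there. foxa2 had a log2 ratio of -0.56 at 3-ss, and sox32 was at least 2.54-fold higher in en-pou5f3 embryos. Blood and vessel markers (3 genes) summed to 663 in en-pou5f3 embryos and 713 in wild-type embryos at 3-ss. Most of that sum came from lmo2 (456 in en-pou5f3 embryos and 394 in wild-type embryos). The dimmer gata1a was 2.35-fold lower in en-pou5f3 embryos at 3-ss (46.5 against 109). At 90% epiboly tal1 was under the floor in both genotypes and gata1a in wild-type embryos, so no sum is given there, and lmo2 had a log2 ratio of 0.22.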
